A study of Mus musculus with 23 samples.

Results

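The cytosolic ribosomal protein genes encode the proteins of the large and small ribosomal subunits. They were taken by symbol as every gene named Rpl or Rps with a number, together with Rplp0, Rplp1, Rplp2 and Rpsa, leaving out the Rps6k kinases and pseudogene symbols. The rule found 86 of the 11548 genes listed for naive B cells and 84 of the 10574 genes listed for cultured B cells, and 84 genes were in both tables. All 86 and all 84 passed the filter on low values used for testing, an RPKM of 1 or above in 2 or more libraries (RPKM is the read number of a gene divided by its length and by the size of the library). By symbol, 43 were proteins of the large subunit, 31 of the small subunit and 3 of the P-stalk. Another 7 were paralogs or retrocopies with names of their own (Rpl22l1, Rpl36al, Rps27l, Rpl32l, Rpl37rt, Rps4l and Rps27rt). The last 2, Rpl7l1 and Rps19bp1, match the symbol rule but are not known as ribosome subunits. Rps4l and Rps27rt were in the naive table alone.

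The study took splenic B cells of mice and set those carrying a guide RNA against Irf8, the gene of an interferon regulatory factor, beside those that carried no guide. The guided cells, called KO, were sorted by Thy1.1, and the WT cells by its absence. The naive cells (B220-positive, negative for CD11b, F4/80 and Thy1.2, untreated) were KO of guide 1, WT of that arm, KO of guide 2 and WT of that arm, with 3 libraries each. The cultured cells had been kept for 72 hours with IL-2 at 20 ng/ml, IL-5 at 5 ng/ml and LPS, whose label reads 20 mg/ml, and the KO ones carried guide 1. They gave activated B cells (B220- and GL7-positive, CD138-negative; 3 KO and 3 WT libraries) and plasmablasts (B220-positive or intermediate, CD138-positive; 3 KO and 2 WT libraries). As every guide was against Irf8, its loss cannot be told apart from carrying a guide and from the Thy1.1 sort. Mouse strain, age and the number of animals behind the libraries are not given in the sources used here, so p-values refer to the spread among libraries, which may be technical.

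Libraries held an estimated 14500000 to 22200000 reads in naive cells and 4300000 to 26900000 in cultured cells, apart from plasmablast KO library 3 with 51000. In that library 1 read in a gene of 1000 bases was worth 19.6 RPKM, and 4 of the 84 ribosomal protein genes were listed at 0. Naive KO guide 1 library A also stood apart, with 1405 genes listed at 0 against 66 to 291 in the other naive libraries. Thy1, the gene of the sort marker, was at 8.88 to 22.1 RPKM in naive KO libraries and at most 0.052 in naive WT libraries other than library A of the guide 1 arm, which had 4.93. In activated B cells it went against the labels at number 3, being 0.093 RPKM where the label is KO and 25.7 where it is WT. Irf8, the targeted gene, was at 47.6 to 77.7 RPKM in naive KO and 79.8 to 98.0 in naive WT libraries. In activated B cells it was at 69.2, 68.1 and 92.4 RPKM in the libraries labelled KO and 108, 93.6 and 59.998 in those labelled WT, again against the labels at number 3. In plasmablasts it was at 17.5, 21.4 and 24.2 RPKM in KO and 24.6 and 17.6 in WT, so its level did not separate the genotypes there. The results below are therefore given for all libraries and without those that stand apart. Of the B cell markers, Cd79a was at 1125 to 1491 RPKM in naive libraries, Cd79b at 699 to 989, Ms4a1 at 205 to 292 and Pax5 at 12.2 to 21.7. Sdc1, the gene of the sort marker CD138, was at 3.03 RPKM in plasmablast KO library 3 and 27.5 to 34.1 in the other plasmablast libraries, and at 0.226 to 0.79 in activated libraries. The 5 plasmablast markers Sdc1, Prdm1, Xbp1, Jchain and Irf4 summed to 1621 to 3709 RPKM in plasmablasts and 708 to 1938 in activated B cells. These sums overlapped through plasmablast KO library 3, with 1621, and the activated library labelled WT of number 3, with 1938. Prdm1 alone did not separate the cell types, at 27.3 to 79.8 RPKM in plasmablasts and 56.7 to 94.6 in activated B cells. It overlapped without those 2 libraries as well, with 69.6 in plasmablast WT library 1 and 73.9 in activated KO library 1. Of the B cell markers, Cd79b was at 148 to 313 RPKM in plasmablasts and 429 to 474 in activated B cells, and Ms4a1 at 14.0 to 56.7 in plasmablasts and 66.9 to 106 in activated B cells. Cd79a, at 428 to 1145 RPKM in plasmablasts and 880 to 1690 in activated B cells, and Pax5, at 0.40 to 3.97 in plasmablasts and 2.91 to 7.90 in activated B cells, overlapped.

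A ribosome holds 1 copy of nearly every one of its proteins, bound to ribosomal RNA, and cells make these proteins in matched amounts. Their mRNAs are among the most abundant of growing cells. Many begin with a C and a run of pyrimidines (the TOP motif), through which the mTORC1 pathway and the RNA-binding protein LARP1 govern their translation. B cells enlarge and raise their protein synthesis after stimulation, and plasma cells turn that capacity to secreting antibody. Some subunits have paralogs, such as Rps27l beside Rps27, Rpl36al beside Rpl36a and Rpl22l1 beside Rpl22, whose proteins are closely alike.

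Ribosomal protein genes made up a larger part of the measured transcripts in cultured than in naive cells. Their share of the summed RPKM of a library was 4.92%, 3.21% and 3.05% in naive KO libraries A, B and C of guide 1, against 3.08%, 3.03% and 3.002% in their WT libraries. With guide 2 it was 3.75%, 3.25% and 3.22% in KO and 3.18%, 3.31% and 2.81% in WT. Apart from the A libraries of both KO groups, the naive shares lay within 2.81% to 3.31%, KO and WT together. In activated B cells the share was 4.84%, 5.17% and 5.48% in the libraries labelled KO and 4.91%, 5.09% and 5.38% in those labelled WT. In plasmablasts it was 4.88%, 4.98% and 3.51% in KO and 4.53% and 5.39% in WT, the 3.51% being the library of 51000 reads. Every cultured library except that one was above 4.5%, and naive KO library A of guide 1 was the only naive library in that range. Weighting each gene by its length, which gives its part of the reads, put the share at 2.36% in that library and 1.23% to 1.75% in the other naive libraries. By that measure it was 1.58% in plasmablast KO library 3 and 2.28% to 2.78% in the other cultured libraries. The naive and cultured tables were scaled separately, so the step between them is a description with no test. In bulk samples, fewer cells of a type and less RNA per cell cannot be told apart.

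**Figure D1:**
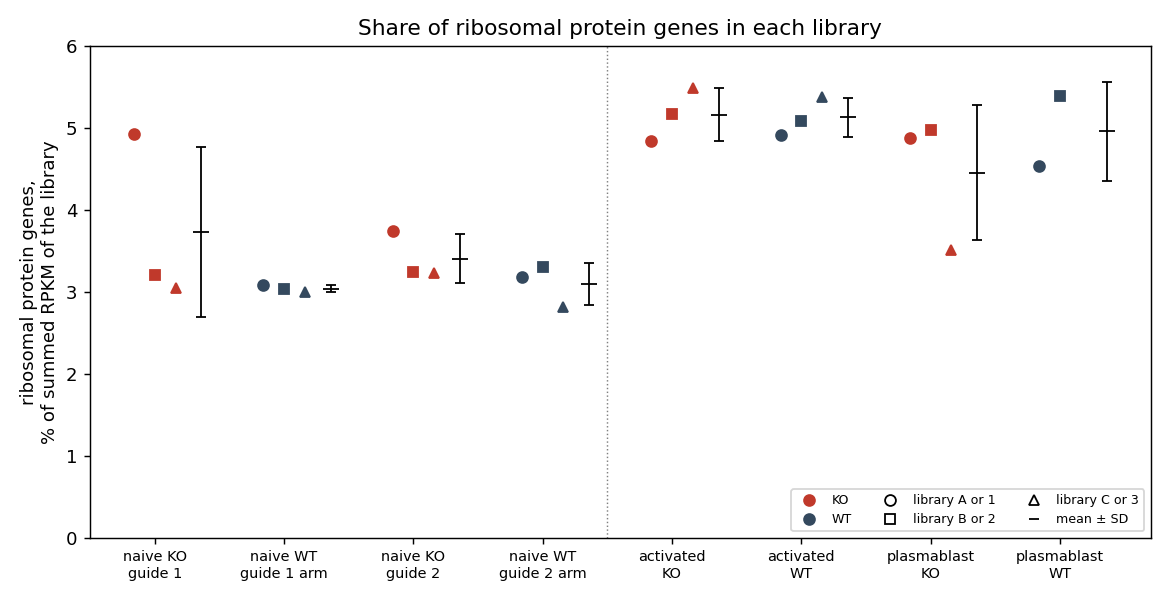
Share of the ribosomal protein genes in the summed RPKM of each library (vertical axis, percent), by group, KO in red and WT in dark blue, with the mean ± SD of each group beside its points (n = 3, plasmablast WT n = 2). Naive libraries lie near 3% except KO library A of guide 1 at 4.92%, and cultured libraries lie between 4.53% and 5.48% except plasmablast KO library 3 at 3.51%.

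Levels differed widely between members. In naive cells the highest mean over the 12 libraries was 389 RPKM for Rps3a1 and the lowest 1.78 RPKM for the paralog Rps4l. The next highest were Rpl36 (308), Rpl4 (259) and Rpl32 (256). At the low end came Rpl32l (4.67), Rps27rt (7.06), Rpl13a (9.44) and Rpl22 (9.49). In cultured cells Rplp1 led with 506 RPKM, ahead of Rpl36 (461), Rps3a1 (453), Rpl32 (407) and Rpl4 (384), and Rps27 was lowest with 14.1, below Rps15a (15.3), Rps19bp1 (15.6), Rpl30 (16.8) and Rpl22 (18.1). These levels per length do not give the true ratios between members. The gene lengths used in the tables were a median of 2.97 times (0.868 to 14.8 times) the length of a main transcript of the same gene in GENCODE M21. Of the 50-base words of that transcript, a median of 49.3% also occurred in transcripts of other genes, which include processed copies of ribosomal protein genes. The overlap was 98.6% for Rps27 and 0 for Rps19bp1. How the authors counted such reads is not given in the sources used here, so comparisons of 1 gene between groups are firmer than comparisons between genes.

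RefSeq start windows on GRCm38.p6 (12 bases before the annotated start and 18 from it) were at hand for 65 of the 86 genes. A run of at least 5 pyrimidines that begins with C exactly at the annotated start was found in 15 of the 65 (23.1%), against 3.01% of all 27025 genes with such a window. Allowing the run to begin from 10 bases before to 10 bases after the start, 38 of the 65 (58.5%) had one, against 34.4% of all genes. Only the strand of the gene was searched. Runs were read from a C onward, so pyrimidines directly before that C were not counted. Windows of 3 members with the run at the start are shown because the motif is the family's best known sequence feature, with that run in capitals. All 3 also have a pyrimidine directly before the start.
Rps6, the target of the S6 kinases: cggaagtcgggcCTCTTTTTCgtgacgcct
Rpl15, of the large subunit: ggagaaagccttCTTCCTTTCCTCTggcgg
Rps27, of the small subunit: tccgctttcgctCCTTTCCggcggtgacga
They lie on chromosome 4 at 86857350 to 86857379, on chromosome 14 at 18270969 to 18270998 and on chromosome 3 at 90213631 to 90213660, all on the minus strand. A match is a description of these letters, and other start sites used in B cells were not searched.

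Naive B cells with a guide were set against those without to ask whether ribosomal protein transcripts differ with the Irf8 guides before stimulation. No member passed the test, and most differences were positive and below 0.25. Differences are on the log2(RPKM + 1) scale from limma, with Benjamini-Hochberg p-values over every gene tested in the comparison, and called means an adjusted p below 0.05. Over both guides 0 of 86 members were called, where 1.88% of all 10137 tested genes were, and 5 members had an unadjusted p under 0.05. Of the 86, 81 differences were positive, with a median of 0.21 against -0.02 over all genes. Guide 1 gave 0 called members (1.11% of all genes were called, 1 member at an unadjusted p under 0.05) with a median of 0.25. Guide 2 gave 0 called members (0.0296% of all genes, 0 members at an unadjusted p under 0.05) with a median of 0.17. The test of guide 2 against guide 1 also called 0 members (0% of all genes, 0 members at an unadjusted p under 0.05).

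The medians leaned on single libraries. In KO library A of guide 1, 83 of 86 members were above their mean over the naive libraries, with a median deviation of 0.66, against 17 and 4 members in KO libraries B and C. In KO library A of guide 2, 83 members were above it as well, with a median deviation of 0.25. Without KO library A of guide 1 the median difference over both guides was 0.07, and that of guide 1 was -0.03, with 37 of 86 members positive. The median of guide 2 was 0.08 without its KO library A (72 of 86 positive) and 0.08 without its WT library C (73 positive). Without KO library A of guide 1 limma called 0 members over both guides (3.84% of all genes, 2 members at an unadjusted p under 0.05) and 0 with guide 1 (2.4% of all genes, 2 members at an unadjusted p under 0.05). Of 7 T cell markers only Lck was listed in the naive table. It was at 31.6 RPKM in KO library A of guide 1, 29.9 in KO library A and 28.7 in KO library C of guide 2, 15.4 to 17.9 in the other KO libraries and 15.1 to 21.7 in WT libraries. Of 6 erythroid markers 2 were listed, with sums of 2.54 to 21.7 RPKM in KO and 2.76 to 13.9 in WT. Of 6 macrophage markers 3 were, with sums of 0.871 to 8.71 RPKM in KO and 2.64 to 8.37 in WT. KO library A of guide 1 held the highest of each. Their part in the result was not tested.

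**Figure D2:**
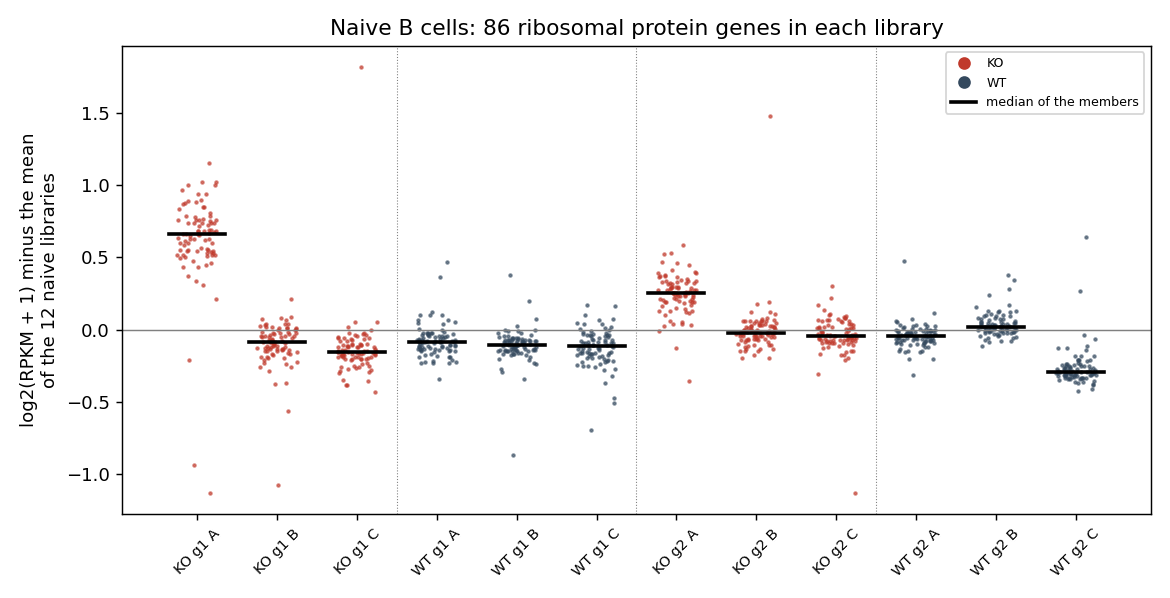
Deviation of each of the 86 ribosomal protein genes from its mean over the 12 naive libraries (vertical axis, log2(RPKM + 1)), with 1 column of points per library, KO in red and WT in dark blue (g1 and g2 are the guide arms), and a bar at the median. The medians of KO libraries A lie at 0.66 for guide 1 and 0.25 for guide 2, and the lowest median is that of WT library C of the guide 2 arm at -0.30.

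The P-stalk proteins, the flexible arm of the large subunit that recruits elongation factors, had the largest median difference of the classes, 0.33 for 3 genes over both guides. Rplp2 was at 59.6, 40.7 and 34.1 RPKM in KO libraries A, B and C of guide 1, against 34.8, 34.1 and 30.6 in their WT libraries. With guide 2 it was at 53.3, 36.5 and 40.5 RPKM in KO and 36.0, 39.4 and 31.1 in WT. In each arm the KO and WT ranges overlapped, as KO library C of guide 1 lay below WT library A and KO library B of guide 2 below WT library B. The difference over both guides was 0.33 (SE 0.14, adjusted p = 0.328 by limma). Without KO library A of guide 1 it was 0.22 (SE 0.11, adjusted p = 0.310). Rplp1 differed by 0.35 (SE 0.16, adjusted p = 0.389) and Rplp0 by 0.24 (SE 0.13, adjusted p = 0.468).

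In each arm a few members had KO libraries all above WT libraries, 7 of 86 with guide 1 (8.14%, against 7.68% of all genes) and 8 of 86 with guide 2 (9.3%, against 7.33% of all genes). None had KO libraries all below, where 10% of all genes did with guide 1 and 6.44% with guide 2. Without KO library A of guide 1 that arm gave 7 above and 15 below (16.2% and 20.2% of all genes). Counts of members above lay near or below those shares of all genes. The largest differences among them were those of Rps12, Rpl11, Rpl23, Rpl21 and Rps20 with guide 1, and of Rpl28, Rps16, Rpl29, Rps20 and Rpl9 with guide 2. Rps20, a protein of the small subunit head, was in both sets. It was at 42.6, 30.9 and 30.1 RPKM in KO libraries of guide 1 against 26.1, 29.3 and 26.3 in WT, and at 37.8, 31.1 and 32.2 in KO libraries of guide 2 against 30.9, 30.4 and 24.0 in WT. The 2 ranges of guide 2 were separated by less than 1 RPKM. Its difference over both guides was 0.28 (SE 0.11, adjusted p = 0.299 by limma), which does not pass. Rps12, of the small subunit, was at 38.6, 15.2 and 16.3 RPKM in KO libraries of guide 1 and 13.0, 15.2 and 14.0 in WT, so that its difference of 0.57 (SE 0.28, adjusted p = 0.342) lay mostly in library A.

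In activated B cells, ribosomal protein transcripts differed little between KO and WT libraries. None of 84 members was called by limma (0% of 9986 genes were, 0 members and 2 of all genes at an unadjusted p under 0.05), and the median difference was 0.02, with a median SE of 0.33. The differences of the 77 subunit genes that are neither paralogs nor outside the ribosome ran from -0.10 to 0.11. Without the 3 libraries that stand apart in the cultured table (both activated libraries numbered 3 and plasmablast KO library 3), 0 of 84 members were called where 0.71% of all genes were, and 1 member had an unadjusted p under 0.05. The median was then 0.01 and the median SE of a member 0.11. That member was Rpl36al, at 100 and 103 RPKM in KO libraries 1 and 2 against 80.9 and 87.6 in WT libraries 1 and 2, a difference of 0.27 (SE 0.12, adjusted p = 0.379). Rpl3, Rpl5, Rpl11, Rps19 and Rps6 differed between these KO and WT libraries by less than their SE. For Rps6 the values were 164 and 173 RPKM in KO and 161 and 168 in WT.

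In plasmablasts the KO to WT difference rested on the shallow library. With all libraries 0 of 84 members were called (0% of all genes, 0 members at an unadjusted p under 0.05), 81 differences were negative and the median was -0.42. Without KO library 3 limma called 0 members again (0% of all genes, 0 members at an unadjusted p under 0.05), 43 were negative and the median was -0.0040. Rplp0, the stalk protein that anchors the others, was at 396, 405 and 111 RPKM in KO and 371 and 462 in WT. KO libraries 1 and 2 lay within the WT range and library 3 lay far below it. Lck, the 1 T cell marker of 7 in the cultured table, was at 53.9 RPKM in library 3 and at 1.02 and 0.67 in KO libraries 1 and 2. Its part in the result was not tested. The largest positive difference without the 3 libraries was that of Rpl22l1, at 27.5 and 35.04 RPKM in KO and 28.4 and 22.0 in WT, a difference of 0.30 (SE 0.14, adjusted p = 0.821). The largest negative one was that of Rps29, at 250 and 257 RPKM in KO and 249 and 400 in WT, where WT library 2 decided the value (-0.31, SE 0.18, adjusted p = 0.956).

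Plasmablasts were then compared with activated B cells of the same genotype, the comparison in which single members moved. With all libraries 0 of 84 members were called in KO cells (3.44% of all genes were called, 1 member at an unadjusted p under 0.05) and 0 of 84 in WT cells (1.76% of all genes, 0 members at an unadjusted p under 0.05). Leaving out plasmablast KO library 3, whose deviation enters the spread that all groups of the fit share, gave 2 called members in KO cells (30.7% of all genes) and 5 in WT cells (33.4% of all genes). Leaving out the 3 libraries that stand apart gave 5 called members in KO cells, 4 higher and 1 lower, where 33.6% of all 9861 genes were called, 12.1% higher and 21.5% lower. In WT cells it gave 9, 6 higher and 3 lower, where 46.3% of all genes were called, 15.5% higher and 30.7% lower. The called share was 5.95% of members in KO and 10.7% in WT cells, below that of all genes in both. The 5 genes called in KO cells were also called in WT cells in the same direction, 5 of 5 and 5 of 9. No such overlap over all genes is given, so it is not a result about the members. Median differences of the members were -0.01 in KO and -0.03 in WT cells, against -0.10 and -0.16 over all genes. The test of the difference between the genotypes called 0 of 84 members (0.0304% of all genes, 1 member at an unadjusted p under 0.05), and 0 with all libraries (0% of all genes, 0 members at an unadjusted p under 0.05).

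How many members fell depends on the scaling, which was changed after the data had been seen. Quantile normalization of the same libraries gave 4 members higher and 13 lower in KO cells (19.4% and 17.4% of all genes), and 5 higher and 21 lower in WT cells (23.9% and 22.5% of all genes). Median-ratio scaling gave 4 higher and 0 lower in KO cells (17.2% and 16.6% of all genes), and 8 higher and 1 lower in WT cells (23.1% and 21.9% of all genes). In WT cells this scaling put the median of all genes at -0.0025, in place of -0.16, and that of the members at 0.16. Rpl36al, Rps27l, Rpl10 and Rps24 were called higher in both genotypes under all 3 scalings. Rpl7l1 was called lower under all 3 in WT cells and under 2 in KO cells. The members that were lower by quantile normalization alone in both genotypes included abundant ones such as Rplp1, Rps3a1, Rpl36 and Rpl4.

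**Figure D3:**
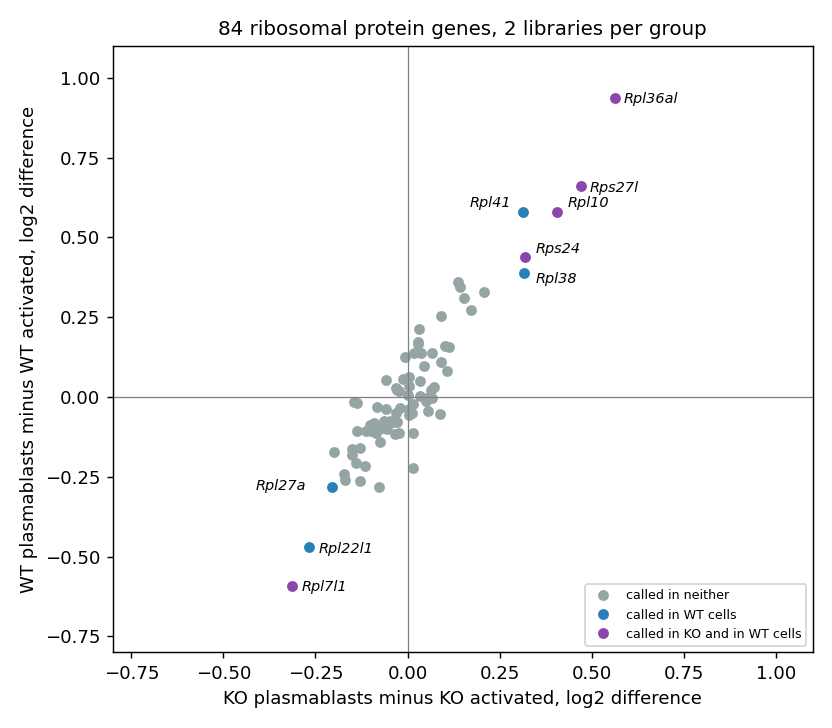
Log2 difference of each of 84 ribosomal protein genes between plasmablasts and activated B cells, in KO cells (horizontal axis) and in WT cells (vertical axis), from libraries 1 and 2 of each group. Most genes lie within 0.25 of 0 on both axes, Rpl36al lies at 0.56 and 0.94, and Rpl7l1 lies at -0.31 and -0.59.

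Rpl36al, whose protein is nearly identical to that of the large-subunit gene Rpl36a, rose in plasmablasts. It was at 143 and 160 RPKM in KO plasmablast libraries 1 and 2, against 100 and 103 in KO activated libraries, and at 147 and 178 in WT plasmablasts against 80.9 and 87.6 in WT activated libraries. All 4 plasmablast libraries were above all 4 activated ones. The log2 difference was 0.56 in KO cells (SE 0.12, adjusted p = 0.00294 by limma) and 0.94 in WT cells (SE 0.12, adjusted p = 4.0e-05). With plasmablast KO library 3 alone left out it was 0.55 (adjusted p = 0.0253) in KO and 0.76 in WT cells, and with all libraries it was 0.12 (adjusted p = 0.837) in KO and 0.76 (adjusted p = 0.461) in WT cells. Plasmablast KO library 3 held 60.8 RPKM, and the activated libraries numbered 3 held 104 RPKM in the one labelled KO and 123 in the one labelled WT.

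Rps27l, a paralog of Rps27 that is also known as a target of the p53 tumour suppressor, rose as well. KO plasmablast libraries 1 and 2 held 172 and 195 RPKM against 129 and 135 in KO activated libraries, and WT plasmablasts held 175 and 223 against 118 and 131. The difference was 0.47 in KO cells (SE 0.13, adjusted p = 0.0152 by limma) and 0.66 in WT cells (SE 0.13, adjusted p = 0.0013). The KO call needed the activated libraries numbered 3 left out as well: without plasmablast KO library 3 alone the KO difference was 0.39 (adjusted p = 0.0824) and the WT difference 0.54 (adjusted p = 0.0208). With all libraries the KO difference turned to -0.21 (adjusted p = 0.772), and the WT difference was 0.54 (adjusted p = 0.775). Rps27 itself was at 13.8 and 15.1 RPKM in KO plasmablasts against 13.4 and 14.6 in KO activated libraries, and at 13.0 and 16.6 in WT plasmablasts against 13.3 and 14.0, so its groups overlapped.

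Rpl10, which joins the large subunit late in its assembly, and Rps24, of the small subunit, were the canonical subunit genes called higher in both genotypes. Rpl10 was at 140 and 141 RPKM in KO plasmablasts against 105 and 107 in KO activated libraries (log2 difference 0.41, SE 0.13, adjusted p = 0.0322 by limma). In WT cells it was at 128 and 172 against 93.4 and 105 (0.58, SE 0.13, adjusted p = 0.00326). The activated library labelled WT of number 3, left out here, held 130 RPKM of Rpl10, above WT plasmablast library 1. Rps24 was at 30.5 and 32.5 RPKM in KO plasmablasts against 24.4 and 25.7 (0.32, SE 0.11, adjusted p = 0.0435), and at 28.7 and 34.1 in WT plasmablasts against 22.0 and 23.6 (0.44, SE 0.11, adjusted p = 0.0062). Both KO calls needed the activated libraries numbered 3 left out. Without plasmablast KO library 3 alone the KO differences were 0.37 for Rpl10 (adjusted p = 0.101) and 0.30 for Rps24 (adjusted p = 0.0685), and with all libraries 0.02 and 0.04. In WT cells Rpl41, the smallest ribosomal protein, and Rpl38, of the large subunit, were called higher too, though neither was without plasmablast KO library 3 alone (adjusted p = 0.195 and 0.233). Rpl38 was at 256 and 304 RPKM in WT plasmablasts against 204 and 222 in WT activated libraries (0.39, SE 0.13, adjusted p = 0.0261), and quantile normalization put it at 0.12 (adjusted p = 0.249). The left-out activated library labelled WT of number 3 held 271 RPKM of Rpl38, between the 2 plasmablast values. For Rpl41 the values were 138 and 228 RPKM in WT plasmablasts and 111 and 126 in WT activated libraries (0.58, adjusted p = 0.0175), and most of that difference lay in plasmablast library 2, which held 4300000 reads. The activated library labelled WT of number 3, with 5500000 reads, was also high for Rpl41, at 178 RPKM, and depth and cell type were not tested apart there.

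Rpl7l1, a homolog of Rpl7 that acts in assembly of the large subunit and not in the finished ribosome, fell. It was at 43.9 and 44.9 RPKM in KO plasmablasts against 55.0 and 55.8 in KO activated libraries, and at 42.4 and 39.2 in WT plasmablasts against 64.4 and 59.5. The difference was -0.31 in KO cells (SE 0.10, adjusted p = 0.027 by limma) and -0.59 in WT cells (SE 0.10, adjusted p = 0.000351). With all libraries it was -1.12 in KO (adjusted p = 0.224) and -0.52 in WT cells (adjusted p = 0.819). Rpl22l1 and Rpl27a were called lower in WT cells alone, and the test of the difference between the genotypes did not call them. Rpl22l1 was at 28.4 and 22.0 RPKM in WT plasmablasts against 35.4 and 34.7 (-0.47, SE 0.14, adjusted p = 0.0128), and at 27.5 and 35.04 in KO plasmablasts against 37.0 and 38.1 (-0.27, adjusted p = 0.153). The left-out activated library labelled WT of number 3 held 26.5 RPKM of Rpl22l1, between the 2 values of WT plasmablasts. Rpl27a was at 35.2 and 35.03 RPKM in WT plasmablasts against 43.8 and 42.0 (-0.28, SE 0.11, adjusted p = 0.046). Median-ratio scaling ended both calls, with -0.29 for Rpl22l1 (adjusted p = 0.0819) and -0.10 for Rpl27a (adjusted p = 0.525). Quantile normalization ended that of Rpl27a (-0.23, adjusted p = 0.0595). Without plasmablast KO library 3 alone neither was called (adjusted p = 0.117 for Rpl22l1 and 0.0741 for Rpl27a).

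Start windows of the genes that moved in both genotypes are shown beside those of their partners, since the paralogs do not share the start sequence. Capitals mark a run of at least 5 pyrimidines beginning with C within 10 bases of the start, and bases farther out were not searched.
Rpl36al: tcccgtcgctcaggttcagttccgacttcc
Rpl36a: cacccaggcaccgcctataaaCTTCCgttg
Rps27l: ctCCTCCCCgccgcctctatcccggaagtt
Rpl10: gttacagtggaagataggccgcctatataa
Rps24: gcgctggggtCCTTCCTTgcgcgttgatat
Rpl7l1: aggctgcgcaagcgcagtagctgaagcacc
The windows lie on chromosome 12 at 69184050 to 69184079 (minus), X at 134585642 to 134585671 (plus), 9 at 66946074 to 66946103 (plus), X at 74270804 to 74270833 (plus), 14 at 24490666 to 24490695 (plus) and 17 at 46782639 to 46782668 (minus). In Rpl36al, Rpl10 and Rpl7l1 no such run begins within 10 bases of the start. Rps24 has one that begins 2 bases before the start. In Rps27l the pyrimidines reach past the 10 bases searched to the edge of the window. The run of Rps27, shown above, is counted from the start, and the bases directly before it are pyrimidines too. Rps27l and Rps24 have further annotated starts whose windows hold no such run.

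A ratio of 2 genes within 1 library does not change with the scaling of that library, so the 3 paralog pairs were also compared as ratios of RPKM, a measure added after the values had been seen. The level of the ratio itself depends on the gene lengths of the table and on shared reads. Rpl36al over Rpl36a was lower in naive KO than in naive WT cells. It was 1.36 ± 0.22 in KO of guide 1 against 1.86 ± 0.12 in WT, and 1.43 ± 0.11 in KO of guide 2 against 1.75 ± 0.21 in WT (SD, n = 3 each). In each arm every KO library lay below every WT library, from 1.12 to 1.56 against 1.72 to 1.95 and from 1.34 to 1.55 against 1.57 to 1.99. The difference of the log2 ratio was -0.38 (two-sided exact permutation test within arms, p = 0.005, the smallest p its 400 arrangements allow; adjusted p = 0.03 over 6 ratio tests). Without the A libraries of the guide 1 arm it was -0.34 (exact permutation p = 0.0167), and leaving out each library in turn gave -0.31 to -0.43. The fit of each gene alone called neither Rpl36al, with a difference of -0.03 (adjusted p = 0.953 by limma), nor Rpl36a, with 0.33 (adjusted p = 0.504).

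The same ratio was higher in plasmablasts than in activated B cells. It was 3.852 and 3.885 in KO plasmablast libraries 1 and 2 against 2.62, 2.49 and 2.27 in the activated libraries labelled KO, and 4.225 and 4.602 in WT plasmablasts against 2.13, 2.20 and 3.21 in those labelled WT. These 4 plasmablast libraries lay above all activated ones. In plasmablast KO library 3 about 1 read each lay behind Rpl36a, Rps27 and Rpl22l1, and about 4, 5 and 6 behind Rpl36al, Rps27l and Rpl22, so its ratios are no measure of these pairs. Without it the difference of the log2 ratio was 0.75 (two-sided exact permutation test within genotypes, p = 0.01, the smallest p its 100 arrangements allow; adjusted p = 0.02 over 6 ratio tests). With it the difference was 0.95 (exact permutation p = 0.01, adjusted p = 0.03). Without the 3 libraries it was 0.81, where 36 arrangements allow no p below 0.0556, the value reached. Rps27l over Rps27 was 12.4 and 12.9 in KO plasmablast libraries 1 and 2 against 9.60, 9.29 and 10.1, and 13.5 and 13.4 in WT plasmablasts against 8.86, 9.38 and 9.22. The difference of the log2 ratio was 0.48 without the library of 51000 reads (exact permutation p = 0.01, adjusted p = 0.02) and 0.31 with it (exact permutation p = 0.135, adjusted p = 0.174). Libraries labelled activated WT lay between 8.86 and 9.38 for that ratio, and naive WT libraries between 0.857 and 1.14, with the same gene lengths in both tables, a step described with no test. In naive cells it was 1.00 ± 0.08 in KO and 0.96 ± 0.11 in WT (SD, n = 6 each), and was not shown to differ by the same test (adjusted p = 0.52). Rpl22l1 over Rpl22 was not shown to differ in either comparison (adjusted p = 0.174 in both by the same test). Its log2 difference was -0.27 in naive KO against WT cells and -0.48 in plasmablasts against activated B cells, where leaving out the library of 51000 reads gave -0.12 (exact permutation p = 0.32). Without naive KO library A of guide 1 the naive difference was -0.13 (exact permutation p = 0.18). Unadjusted exact permutation p-values under 0.05 appeared without naive KO library C of guide 1 (-0.38, p = 0.04), without naive KO library C of guide 2 (-0.32, p = 0.035) and without plasmablast KO library 2 (-0.68, p = 0.04).

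**Figure D4:**
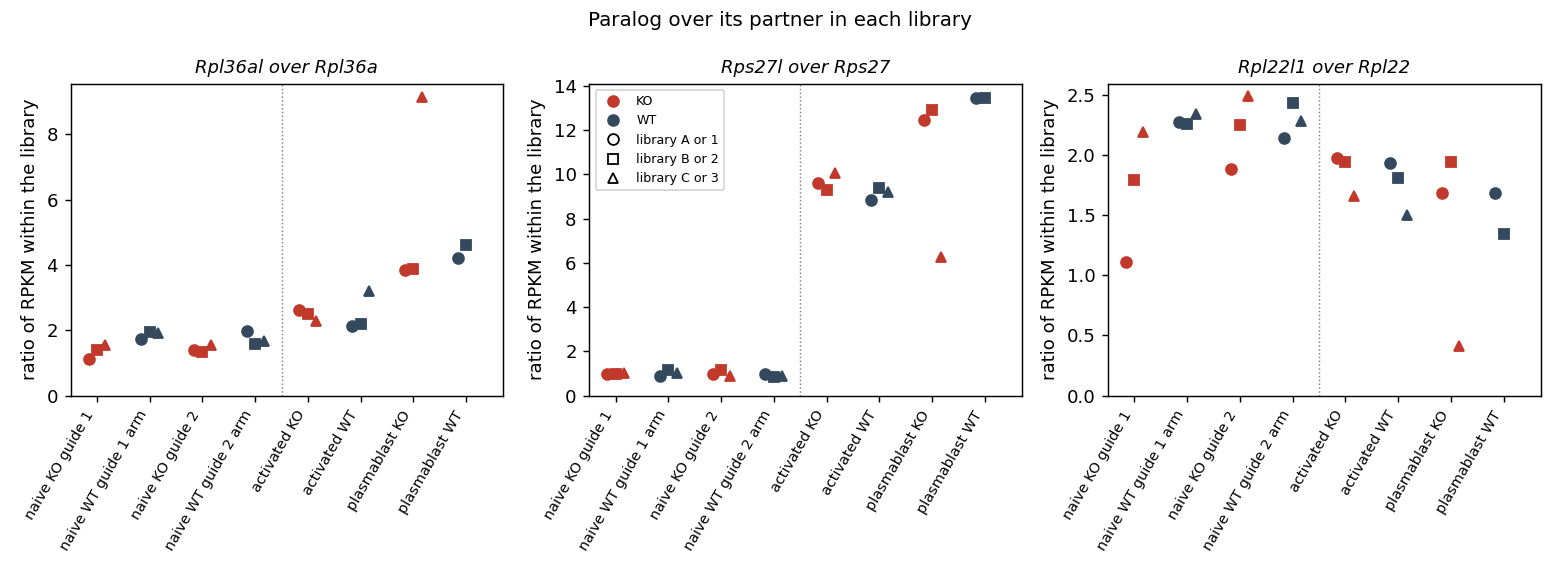
Ratio of the RPKM of a paralog to that of its partner within each library (vertical axes), by group, KO in red and WT in dark blue, with 1 point per library (circles, squares and triangles are libraries A or 1, B or 2, C or 3). Plasmablast KO library 3 is plotted but left aside in what follows, as its points rest on about 1 read of 1 gene of each pair. Rps27l over Rps27 lies near 1 in naive cells and between 8.86 and 13.5 in cultured cells, and Rpl36al over Rpl36a is higher in plasmablasts than in activated B cells.

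Levels in the activated libraries labelled WT were set beside those of naive WT cells, with no test, as the tables were scaled apart. Of 84 members in both tables, 82 had every activated library above every naive WT library and 1 (Rps27) had every one below, where 28.9% of all genes were above and 29.7% below. Without the activated library labelled WT of number 3 the counts were 82 and 1 again (33.3% and 31% of all genes). The median ratio of activated to naive medians was 1.87 for members and 0.98 for all 9608 genes at 1 RPKM or more in either. Some paralogs and retrocopies led: Rpl32l was at 26.1 RPKM in activated and 3.77 in naive WT medians, Rpl37rt at 60.7 and 9.93, and Rps27l at 131 and 22.2. The paralogs Rpl36al and Rpl22l1 did not, with ratios of 2.60 and 1.72. Of the main subunit genes Rpl41 had the highest ratio (126 RPKM in activated and 39.7 in naive WT medians), followed by Rps26 and Rps21. The P-stalk genes Rplp0, Rplp1 and Rplp2 had ratios of 2.60, 2.64 and 2.68. Rpl22, Rps27a, which is made as a fusion with ubiquitin, Rpsa and Rpl36a lay close to 2, and Rpl5 and Rpl11, which bind the p53 regulator MDM2, at 1.52 and 1.70. Rps27 was at 14.0 RPKM (13.3 to 17.2) in activated and 22.3 (20.5 to 25.7) in naive WT libraries.

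Many ribosome assembly factors fell in plasmablasts relative to activated B cells, more of them in WT than in KO cells. Without the 3 libraries, 16 of 34 ribosome assembly factors fell and 0 rose in KO cells, with a median of -0.38, and 29 fell and 1 rose in WT cells, with a median of -0.75, where 21.5% of all genes fell in KO and 30.7% in WT cells. Under median-ratio scaling 7 fell and 1 rose in KO cells, with a median of -0.27, and 27 fell and 1 rose in WT cells, with a median of -0.58, where 16.6% of all genes fell in KO and 21.9% in WT cells, so the KO count was near that of all genes. Under quantile normalization 13 fell in KO and 26 in WT cells, where 17.4% and 22.5% of all genes fell. The 34 include Rpl7l1, described above, and the 1 that rose in WT cells was Gnl3, a nucleolar GTPase, at 29.8 ± 2.11 RPKM in WT plasmablasts against 21.3 ± 2.27 in WT activated cells (SD, n = 2 each). Ncl, nucleolin, was at 33.9 ± 0.07 RPKM in KO plasmablasts against 50.3 ± 7.53 in KO activated cells, and at 33.9 ± 0.86 in WT plasmablasts against 69.0 ± 1.18 (SD, n = 2 each). Genes of RNA polymerase I, which transcribes the ribosomal RNA, fell in 4 of 15 cases in KO cells and in 10 of 15 in WT cells, and 0 rose. Among 16 elongation factor and other TOP genes, 4 fell and 1 rose in KO cells, and 9 fell and 1 rose in WT cells. The KO counts of both lists lay near the share of all genes that fell. Under median-ratio scaling 3 RNA polymerase I genes fell in KO and 9 in WT cells. Of the TOP genes 3 and 6 fell, the KO counts again near that share. Under quantile normalization 4 and 8 RNA polymerase I genes fell, and 6 and 13 TOP genes. Of 45 initiation factors 3 fell and 5 rose in KO cells, and 12 fell and 3 rose in WT cells, and under median-ratio scaling more rose than fell in both. Of 77 mitochondrial ribosomal proteins 14 fell and 8 rose in KO cells, and 26 fell and 11 rose in WT cells, and there too median-ratio scaling turned the balance, to 8 fallen and 14 risen in KO and 11 fallen and 17 risen in WT cells. Over all genes 12.1% rose in KO and 15.5% in WT cells, and 17.2% and 23.1% under median-ratio scaling. These counts of initiation factors and mitochondrial ribosomal proteins lay near or below the shares of all genes. Npm1, nucleophosmin, was at 50.2 ± 4.97 RPKM in KO plasmablasts against 103 ± 18.03, and at 50.9 ± 0.76 in WT plasmablasts against 133 ± 5.09 (SD, n = 2 each), whereas Tpt1, another TOP gene, rose to 82.2 ± 0.96 against 59.7 ± 2.61 RPKM in KO and to 77.1 ± 2.51 against 54.3 ± 1.66 in WT. Without the 3 libraries the difference between the genotypes was positive for 33 of the 34 assembly factors, with a median of 0.40, and 0 were called. Over all genes 57.5% were positive, with a median of 0.04. Genes of a list may vary together in a library, so their number is not a number of replicates. With all libraries 0 of the 34 assembly factors were called in KO and 0 in WT cells, with medians of -0.77 and -0.64.

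**Figure D5:**
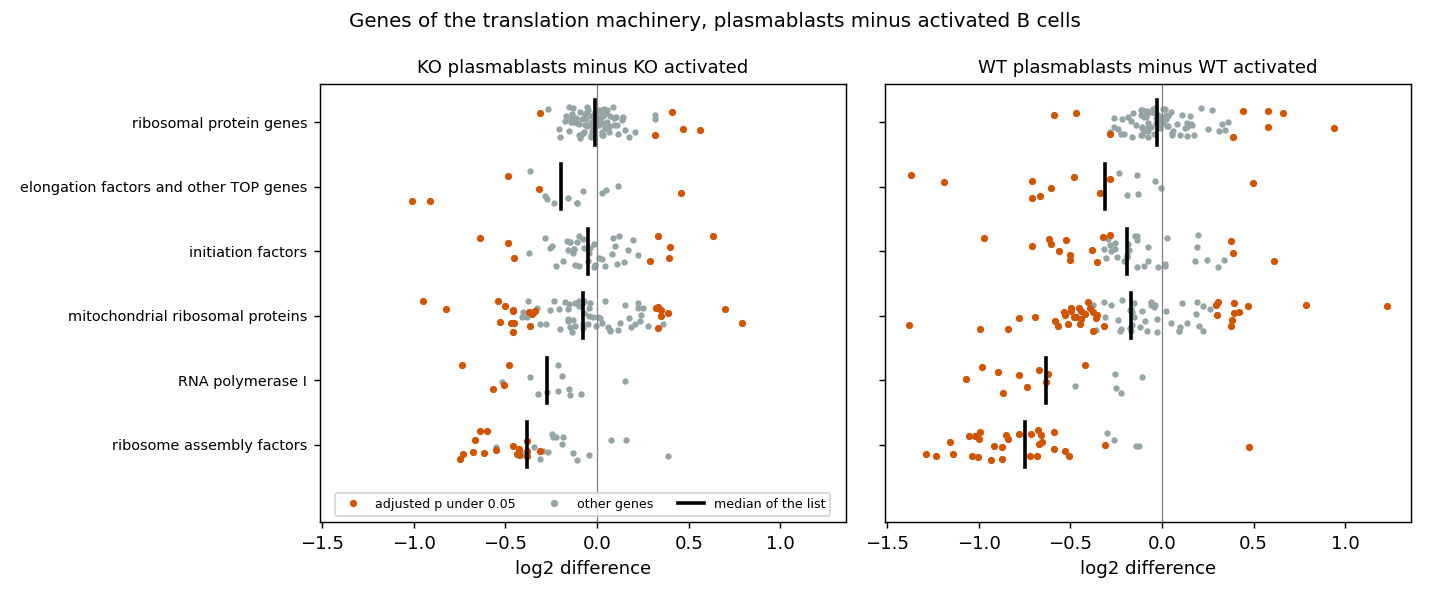
Log2 difference of genes of the translation machinery (1 point per gene, a bar at the median of each list) between plasmablasts and activated B cells, in KO cells (left) and WT cells (right), from libraries 1 and 2 of each group, with called genes in orange. The medians of the ribosomal protein genes lie at -0.01 and -0.03, and those of the assembly factors at -0.38 and -0.75.

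Between KO and WT the same lists gave few calls. In naive cells, over both guides, 0 assembly factors, 0 initiation factors and 0 of 78 mitochondrial ribosomal proteins were called, with medians of 0.14, 0.02 and 0.01. Of all genes 1.88% were called there. Assembly factors made up 0.642% of the summed RPKM in KO library A of guide 1, against 0.399% to 0.463% in the other naive libraries. Mrps28, of the mitochondrial ribosome, was called lower with guide 1 once KO library A was left out, at 18.2 ± 1.46 RPKM in KO (SD, n = 2) against 28.3 ± 1.45 in WT (SD, n = 3; adjusted p = 0.0263 by limma). In that setting 2.4% of all genes were called, 1.18% lower, so this call describes 1 gene and not its list. In activated B cells with all libraries 27 of 34 assembly factors had negative differences, with a median of -0.05, and 0 were called. Without the 3 libraries 33 of 34 had, with a median of -0.37, and 0 were called. Over all genes 48.4% of differences were positive there, with a median of -0.0073. In plasmablasts without KO library 3 the median of the assembly factors was 0.02 and 0 were called.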

How the data were processed

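RNA of 23 sorted B cell libraries was sequenced after SMART-seq v4 cDNA synthesis and Nextera XT preparation, per the labels' protocols. The authors deposited RPKM, 1 table for naive and 1 for cultured cells. The submitters' processing notes name STAR and the mouse build mm10. Their versions, the counting rule and the handling of reads shared between genes are not given in the sources used here. Tests were run within a table. limma 3.58.1 under R 4.3.3 was run on log2(RPKM + 1) (trended spread, 9 contrasts, adjusted p under 0.05 by Benjamini and Hochberg) over 10137 naive and 9986 cultured genes. A fold on this scale understates changes of low genes. The fit was tested on simulated data. Read numbers were estimated from the smallest steps between RPKM values (100% of low values whole within 0.2 of a read). They bound the precision, and no interval for counting error is given. Transcripts were those of GENCODE M21. Numbers and letters of libraries were not treated as pairs, as the check described with the alternatives did not bear pairing out, though it cannot exclude it. Named members are those with the largest differences, a panel of paralogs and well known subunits, and the 5 highest and 5 lowest, and some of these are not reported here. The members, gene lists and tests were chosen with earlier results of these data known. Alternatives were another pseudocount, no filter, quantile and median-ratio scaling, a replicate block, leaving out libraries, members without paralogs, and a share weighted by gene length.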

Additional observations from a re-analysis of the deposited data

How the results depend on the processing

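The number of called members stayed at 0 in the 7 comparisons other than plasmablasts against activated B cells, under each alternative tried. In KO plasmablasts against KO activated cells it was 0 with all libraries, 5 without the 3 libraries that stand apart, 17 when quantile normalization was added and 4 with median-ratio scaling added. In WT cells it was 0 with all libraries, and 9, 26 and 9 under the same alternatives. Leaving out each library in turn gave 0 to 2 in KO and 0 to 5 in WT cells, the highest values without plasmablast KO library 3. Without that library the median SE of a member in WT cells was 0.13, against 0.37 with all libraries, and the median difference was -0.04 in both. What sets that library apart was not tested. Both additions of a scaling were chosen after seeing the data. A pseudocount of 0.1 RPKM, no filter, either scaling of all libraries, and the replicate block each gave 0 called members in each comparison.

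The labels of the cultured libraries carry the same numbers across genotypes and cell types, and those of naive libraries the same letters across KO and WT. Libraries of the same letter or number did not deviate together (r from -0.11 to 0.18 over 6 naive pairs and from -0.24 to 0.25 over 15 cultured pairs). No r of libraries with different numbers or letters is given, so this check cannot exclude pairing. The tests above ignored any pairing, and a replicate block was an alternative alone. It gave 133 called genes in all in place of 191 for naive KO against WT over both guides. Under it the difference of the retrocopy Rpl32l in WT plasmablasts against WT activated cells was -0.40 in place of 0.19, neither called. That of Rps21 in KO cells was 0.0623 without the 3 libraries under median-ratio scaling, in place of -0.91, again with no call.

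The shallow libraries limit plasmablasts most: 51000 reads in KO library 3 and 4300000 in WT library 2, with 2 WT libraries in all. With the 3 libraries left out, groups have 2 libraries each, and their spread is pooled over all of them.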
